A study of Mus musculus with 32 samples.

Results

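The 34 genes described here code for the carriers that bring glucose into the cell, the enzymes that turn it into pyruvate and lactate, the proteins that decide whether pyruvate enters the mitochondrion, and a small set of hypoxia pathway genes. They were taken from a list of symbols, and all 34 were found among the 43345 mouse genes of the deposited count tables. RNA was counted in 32 libraries of mouse B cells that lacked or carried ELOF1, a factor that binds elongating RNA polymerase II and takes part in transcription-coupled DNA repair. CH12F3 is a mouse B lymphoma line that can be made to switch its antibody class in culture. All 16 CH12F3 libraries came from Elof1-KO cells stimulated with α-CD40, IL4 and TGF-β, which held either a vector (below, vector cells) or ELOF1 put back (ELOF1 cells). Both kinds were sampled after 1.5 days (4 libraries each), 3 days (2 each) and 7 days (2 each). The other 16 libraries came from B cells of mouse spleen stimulated with IL4 and LPS, either Elof1-cKO (a conditional knockout, cKO) or wild-type (WT), sampled after 2.5 days (5 libraries each) and 3.5 days (3 each). How many CH12F3 clones were used, which Cre drove the deletion, and the age of the mice are not stated in the sources used here. Nothing in the labels says that replicates were separate cultures or animals, so the p-values measure the spread between these libraries, which may be technical. In bulk RNA, fewer cells of a type and less RNA per cell cannot be told apart.

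Glycolysis splits glucose into pyruvate in the cytosol, and lactate dehydrogenase then turns pyruvate into lactate, which leaves the cell through monocarboxylate transporters. B cells raise this pathway when they are activated and begin to divide. The hypoxia-inducible factor HIF-1 is destroyed in oxygenated cells after prolyl hydroxylases (the Egln proteins) mark its alpha subunit, and when it is stable it drives many genes of glucose uptake and glycolysis together with genes such as Bnip3, Pdk1, P4ha1 and Egln3. HIF-1 binds hypoxia response elements, whose core is ACGTG or GCGTG. MYC, the other well-known driver of glycolytic genes in activated lymphocytes, binds the E-box CACGTG.

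These cores were searched on both strands in the 250 bases before the RefSeq start site of each gene (mouse build GRCm38.p6), and 33 of the 34 genes matched a promoter by symbol, Slc2a3 being the exception. ACGTG stood in 16 of the 33 (48.5%), against 16.5% of 27025 mouse promoters and 21.8% of the 10156 promoters of genes that entered the tests. GCGTG stood in 18 (54.5%), against 28.3% of all promoters and 45.4% of those of tested genes. Either core was found in 27 (81.8%), against 38.6% and 56.5%. CACGTG, which holds ACGTG on both strands, was found in 6 (18.2%), against 6.04% and 8.44%. These are matches of letters and not binding sites. The promoters of 6 genes are printed below. Slc2a6 was called higher without ELOF1 in both systems. The rest are 5 of the 8 members that stood at least 2-fold above the other libraries in a single pair of spleen libraries. Eno2, called higher without ELOF1 in CH12F3, is not printed. The 6 were chosen after the values had been seen. Capitals mark ACGTG or GCGTG, or the same core read on the other strand (CACGT or CACGC).
Slc2a6 promoter, chr2:27027999-27028248, minus strand: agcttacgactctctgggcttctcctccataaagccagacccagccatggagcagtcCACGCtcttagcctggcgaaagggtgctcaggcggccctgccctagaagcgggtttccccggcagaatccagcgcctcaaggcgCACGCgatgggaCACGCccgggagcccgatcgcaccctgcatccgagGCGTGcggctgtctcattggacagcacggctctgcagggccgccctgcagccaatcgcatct
Bnip3 promoter, chr7:138909507-138909756, minus strand: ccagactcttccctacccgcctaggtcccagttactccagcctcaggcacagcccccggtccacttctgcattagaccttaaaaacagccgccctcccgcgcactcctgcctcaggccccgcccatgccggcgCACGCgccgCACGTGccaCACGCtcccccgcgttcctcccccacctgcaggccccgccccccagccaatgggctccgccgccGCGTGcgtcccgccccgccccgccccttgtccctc
Slc16a3 promoter, chr11:120948817-120949066, plus strand: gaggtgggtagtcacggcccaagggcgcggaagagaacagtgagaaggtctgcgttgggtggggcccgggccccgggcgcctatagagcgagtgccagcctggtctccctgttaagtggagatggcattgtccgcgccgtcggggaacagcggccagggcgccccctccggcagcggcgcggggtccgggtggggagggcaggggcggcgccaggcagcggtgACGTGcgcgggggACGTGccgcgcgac
P4ha1 promoter, chr10:59323046-59323295, plus strand: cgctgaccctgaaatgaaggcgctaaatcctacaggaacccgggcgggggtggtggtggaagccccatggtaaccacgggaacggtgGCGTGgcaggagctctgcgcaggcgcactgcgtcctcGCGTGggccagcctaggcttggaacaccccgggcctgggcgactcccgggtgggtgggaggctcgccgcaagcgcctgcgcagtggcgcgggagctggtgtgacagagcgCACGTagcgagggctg
Pdk1 promoter, chr2:71872974-71873223, plus strand: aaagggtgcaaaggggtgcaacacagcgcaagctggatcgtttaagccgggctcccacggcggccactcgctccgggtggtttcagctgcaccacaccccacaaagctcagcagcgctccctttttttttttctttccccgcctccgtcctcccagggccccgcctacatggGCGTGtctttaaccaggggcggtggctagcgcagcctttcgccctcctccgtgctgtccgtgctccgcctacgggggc
Egln3 promoter, chr12:54203875-54204124, minus strand: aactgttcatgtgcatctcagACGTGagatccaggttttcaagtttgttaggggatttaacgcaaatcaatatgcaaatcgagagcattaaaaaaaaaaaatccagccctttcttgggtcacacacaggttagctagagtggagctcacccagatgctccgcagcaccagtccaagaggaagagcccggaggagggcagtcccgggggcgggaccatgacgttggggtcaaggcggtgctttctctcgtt
Bnip3, a mitophagy receptor of the outer mitochondrial membrane, had 5 marked cores within 117 bases of the start, counting both strands of 1 CACGTG. Slc2a6 had 4 separate cores. Slc16a3, the lactate exporter MCT4, had ACGTG at 27 and 14 bases before the start. Eno2 had neither core in this window.

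Depth ran from 7112130 to 16359477 mouse counts per library, and the 34 genes took 1.15% to 1.92% of the counts in CH12F3 and 0.838% to 1.75% in spleen. Elof1 was at 0.966 to 5.49 CPM (read counts scaled to library size with TMM factors, within each system) in vector cells, against 140 to 681 CPM in ELOF1 cells, and at 1.27 to 7.65 CPM in cKO cells, against 10.99 to 55.1 CPM in WT cells. All 8 B cell markers examined were detected in every group, with a summed level of 842 to 4174 TPM (counts per exon length, scaled to a common total), while 10 T and NK cell markers summed to 18.5 to 45.1 TPM. The 11 myeloid markers summed to 94.9 to 236 TPM in CH12F3 and to 15.2 to 38.7 TPM in spleen. The library numbers in the labels form 2 separate series, of 8 and 24 libraries, called the first and the second run here. The labels do not say what the numbers stand for, so that they mark separate runs is an assumption. Each run held both genotypes at CH12F3 day 1.5 and at spleen day 2.5, and the first run held no other day. Expression was tested with edgeR's quasi-likelihood test in 1 fit per system with a term for the run, and a gene was called when its Benjamini-Hochberg adjusted p over all genes tested was below 0.05. The CH12F3 fit tested 14201 genes including 31 members, and the spleen fit 13367 genes including 33. Ldhb was too low in both systems, and Pdk2 and Egln3 were too low in CH12F3.

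Levels are compared between genes per length, as TPM, and are given as the median of 16 libraries in CH12F3 and then in spleen. Pkm, the muscle-type pyruvate kinase of proliferating cells, led in both systems at 1908 and 1429 TPM. Gapdh, which makes the first NADH of the pathway, followed at 1341 and 1171 TPM, and Aldoa, the main aldolase, at 1006 and 752 TPM. Eno1, the enolase of most tissues, stood at 969 and 380 TPM. Ldha, which makes lactate, stood at 785 and 621 TPM, and Pgk1, the first ATP-yielding step, at 629 and 519 TPM. These genes have many processed pseudogenes, and the sources used here do not say how reads matching several places were treated, so their levels are uncertain by that amount. Annotated genes also overlap Slc2a1, Slc2a3, Hk1, Hk2, Gpi1, Pfkm, Pfkp, Tpi1, Gapdh, Pdk2, Pfkfb3, Pdha1 and Hif1a, and reads of such neighbours may not be separable from those of the members.

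Most families were led by 1 member. Of the summed TPM of the aldolases listed here, Aldoa made up 99.96% in CH12F3 and 98.9% in spleen (medians of 16 libraries each), and Eno1 made up 93.7% and 97.4% of the enolases. Hk2, the inducible hexokinase, made up 85.9% of Hk1 and Hk2 together in CH12F3 and 62.4% in spleen, and the ranges of the 16 libraries (74.5% to 90.0%, and 52.7% to 70.8%) did not overlap. Pfkl made up 63.8% and 64.9% of the phosphofructokinases. Among the 3 glucose carriers the largest share was not that of Slc2a1 (GLUT1, the usual carrier of activated lymphocytes) but of Slc2a6 (GLUT6, a carrier held largely on internal membranes), at 56.0% in CH12F3 and 72.5% in spleen. Slc16a1 (MCT1) made up 80.7% and 89.7% of the monocarboxylate transporters, and Pdk3 made up 76.2% and 78.7% of the pyruvate dehydrogenase kinases. These leaders did not hold in every library. In replicate 4 of spleen day 2.5, Slc16a3 stood above Slc16a1. It had 65.2 against 43.8 TPM in cKO cells, and 76.4 against 54.8 TPM in WT cells. In that WT library Slc2a1, at 98.6 TPM, also exceeded Slc2a6, at 84.7 TPM. Ldhb had 4 counts in all 16 CH12F3 libraries and 22 in all 16 spleen libraries.

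**Figure D1:**
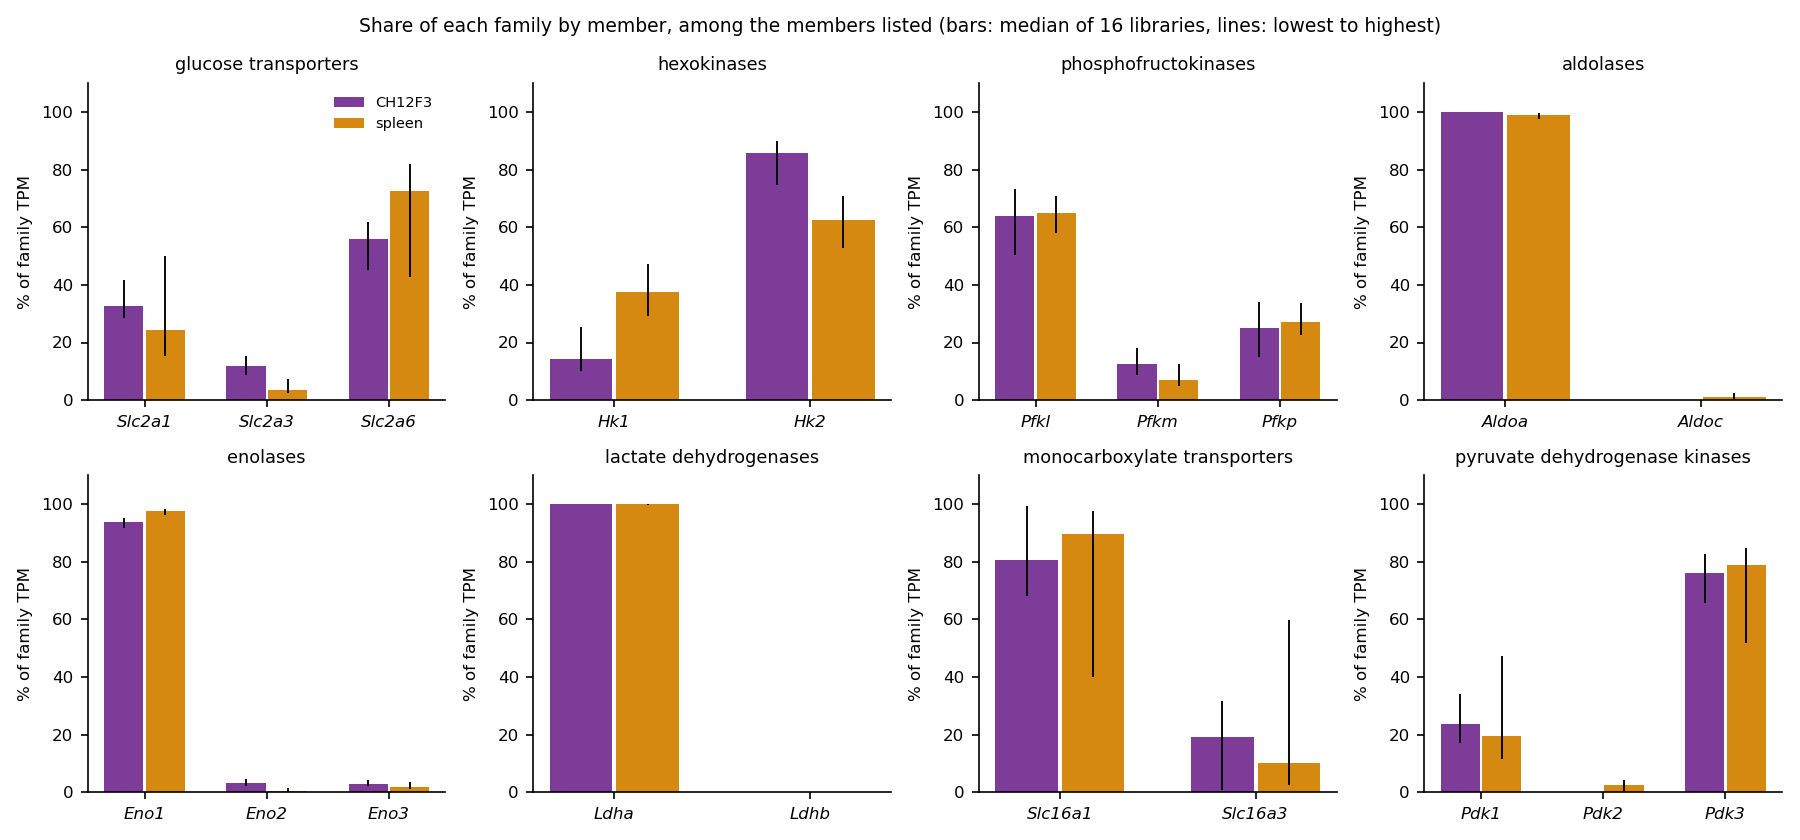
Share (%) of each family's summed TPM held by each listed member, in CH12F3 (purple) and spleen (orange). Bars are medians of 16 libraries and lines run from the lowest to the highest library. The Hk2 bars stand at 85.9% and 62.4%, with ranges that do not overlap.

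The first question the design puts to these genes is how they differed between cells without and with ELOF1. In CH12F3 both kinds are knockout cells, 1 with ELOF1 put back, and no unmodified line is among the libraries. Scaled over both systems, Elof1 stood at 131 to 642 CPM in ELOF1 cells, against 11.8 to 59.1 CPM in WT spleen cells. A loss of ELOF1 and a raised level of it therefore cannot be told apart in CH12F3. At day 1.5 in CH12F3, 2 of 31 members were called, both higher in vector cells: Slc2a6 and Eno2. Over all genes tested 1.15% were called and 0.606% were called higher. The other 29 did not pass, and 24 of 31 members had a positive log2 fold change, against 52.5% of all genes tested. Their median was 0.12, against 0.01 over all genes. Without ELOF1 replicate 1 the members' median was 0.19, and with Drosophila scaling (described below) it was 0.01, against -0.08 over all genes.

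Eno2 codes for the enolase isoform best known from neurons, and it lies at chr6:124760053-124769673 on the minus strand. It had 102, 99.6, 98.7 and 92.1 CPM in vector cells, against 73.2, 67.6, 63.6 and 59.4 CPM in ELOF1 cells. Every vector library lay above every ELOF1 library. The log2 fold change was 0.58 ± 0.08 (SE), with an edgeR adjusted p of 0.0060, and leaving out any 1 of the 8 libraries kept it called (adjusted p 0.0176 to 0.0281). Among the listed enolases it remained a minor isoform, at a median of 3.31% of their TPM in CH12F3.

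Slc2a6 lies at chr2:27021363-27027998 on the minus strand, with its promoter printed above. It had 206, 155, 198 and 221.5 CPM in vector cells, against 111, 90.2, 139 and 175 CPM in ELOF1 cells. Each vector library lay above the ELOF1 library of the same number, but the groups overlapped, since ELOF1 replicate 4 at 175 CPM exceeded vector replicate 2 at 155 CPM. The log2 fold change was 0.62 ± 0.12 (SE), with an edgeR adjusted p of 0.0285. The call was lost on leaving out ELOF1 replicate 1, 2 or 3 or vector replicate 1, 2 or 4 (adjusted p 0.0646 to 0.0941), with log2 fold changes of 0.50 to 0.74 over all 8 omissions.

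**Figure D2:**
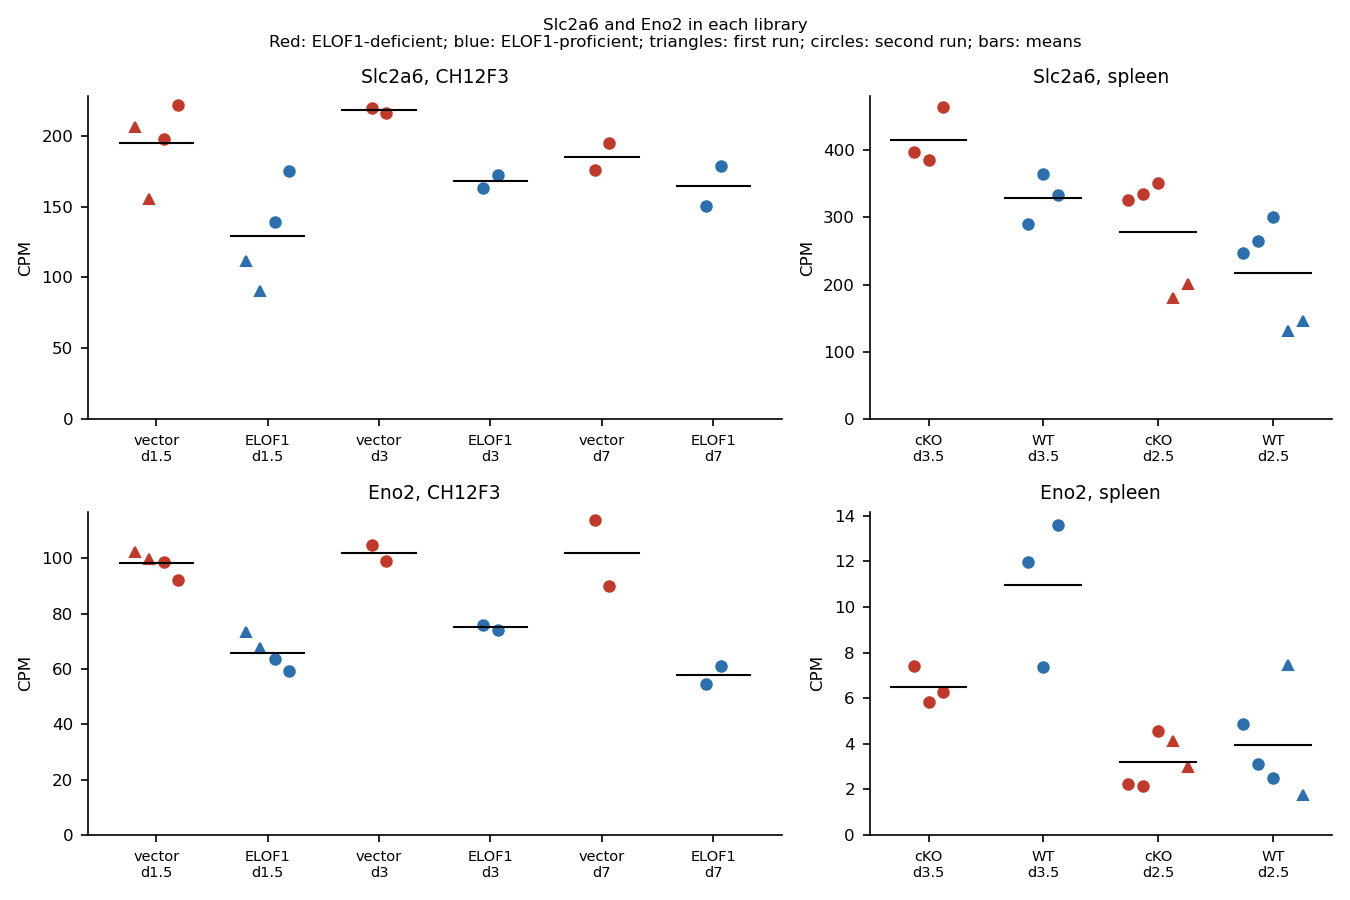
CPM of Slc2a6 and Eno2 in each library (linear axes from 0), by genotype and day, for CH12F3 (left) and spleen (right). Red points are ELOF1-deficient, blue points ELOF1-proficient, triangles the first run, circles the second, and bars group means. Eno2 at CH12F3 day 1.5 lies at 92.1 to 102 CPM in vector cells and at 59.4 to 73.2 CPM in ELOF1 cells, while its spleen values stay at or below 13.6 CPM.

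Within runs the log2 fold change of Slc2a6 was 0.82 in the first (edgeR adjusted p = 0.17) and 0.40 in the second (adjusted p = 0.63), with 2 libraries per genotype in each. For Eno2 it was 0.50 in the first (adjusted p = 0.29) and 0.62 in the second (adjusted p = 0.35). When the libraries were scaled on the Drosophila RNA added to them, neither gene was called: Slc2a6 stood at 0.50 on the log2 scale (adjusted p = 0.48) and Eno2 at 0.48 (adjusted p = 0.38), with the median of all genes at -0.08.

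Libraries with the same number deviated together across the genotypes at day 1.5, and they also share a run. The labels state no pairing, so it was read from these same data and is uncertain. A fit with the number as a block called 6 of 31 members, all higher in vector cells, against 8.6% of all genes called and 4.5% called higher. They were Slc2a6 (adjusted p = 0.000192), Eno2 (adjusted p = 0.000254), Bnip3, Slc2a3, Pgam1 and P4ha1. Slc2a3, the high-affinity carrier GLUT3, had 93.5, 97.2, 118 and 103 CPM in vector cells, against 75.2, 55.4, 87.0 and 93.7 CPM in ELOF1 cells. Each vector library exceeded the ELOF1 library of its number, while ELOF1 replicate 4 stood a little above vector replicate 1. Its log2 fold change was 0.42 ± 0.09 (SE) with the block (adjusted p = 0.00915) and 0.42 ± 0.10 without it (adjusted p = 0.0703).

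P4ha1, which hydroxylates collagen prolines in the endoplasmic reticulum, had 146, 158, 173 and 159 CPM in vector cells, against 133, 101, 142 and 132 CPM in ELOF1 cells, so the groups did not overlap. Its log2 fold change was 0.33 ± 0.08 with the block (adjusted p = 0.0115), against an adjusted p of 0.16 without it. Bnip3 had 122, 79.6, 98.8 and 64.7 CPM in vector cells, against 109, 48.4, 70.1 and 53.8 CPM in ELOF1 cells. The libraries spread widely within each genotype, with replicate 1 highest and replicate 3 next in both. Its log2 fold change was 0.41 ± 0.09 with the block (adjusted p = 0.00873), against an adjusted p of 0.66 without it. Pgam1, the phosphoglycerate mutase of most tissues, had 297, 257, 422 and 294 CPM in vector cells, against 283, 204, 300 and 230 CPM in ELOF1 cells, with a log2 fold change of 0.31 ± 0.07 under the block (adjusted p = 0.00957) and an adjusted p of 0.58 without it. These 6 genes, with Gpi1 and Eno3, were the 8 of 31 members that were higher in vector cells in every same-numbered pair, against 15% of all genes. Groups that did not overlap were found, higher in vector cells, for Eno2 and P4ha1, against 1.78% of all genes.

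Days 3 and 7 have 2 libraries per genotype. No member was called at day 3 (0.00704% of all genes were), although 24 of 31 again had a positive log2 fold change, against 49.8% of all genes. Their median was 0.12 and moved to between 0.00 (without vector replicate 1) and 0.28 (without vector replicate 2) when 1 library was left out, and to -0.06 with Drosophila scaling, where all genes lay at -0.19. At day 7, 1 member was called, Eno2, against 0.0352% of all genes called and 0.0141% called higher. Eno2 had 114 and 89.8 CPM in vector cells, against 54.6 and 61.0 CPM in ELOF1 cells at day 7, and 104.9 and 99.0 CPM against 75.9 and 74.0 CPM at day 3. Both vector libraries stood above both ELOF1 libraries on each day. The log2 fold change was 0.82 ± 0.12 (SE) at day 7 (edgeR adjusted p = 0.0374) and 0.44 ± 0.12 at day 3 (adjusted p = 0.90). The day 7 call was lost without ELOF1 replicate 1 (adjusted p = 0.47), ELOF1 replicate 2 (adjusted p = 0.15) or vector replicate 1 (adjusted p = 0.25), and with Drosophila scaling the log2 fold change was 0.66 (adjusted p = 1).

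Slc2a6 had 220 and 215.998 CPM in vector cells, against 163 and 173 CPM in ELOF1 cells at day 3, and 176 and 195 CPM against 151 and 178 CPM at day 7. The groups were apart at day 3 and overlapped at day 7, and neither day was called (adjusted p = 1 at both days). Members whose groups did not overlap numbered 7 higher and 1 lower in vector cells at day 3, against 15.8% and 16.6% of all genes. At day 7 they numbered 8 higher and 2 lower, against 16.7% and 16.1%. Higher at day 3 were Eno2, Eno3, Gapdh, P4ha1, Pkm, Slc2a3 and Slc2a6, and lower was Pdk1, the kinase that shuts pyruvate dehydrogenase under hypoxia. Higher at day 7 were Bnip3, Eno2, Eno3, Gapdh, Hk2, P4ha1, Pgk1 and Pkm, and lower were Pdk1 and Slc2a3. Replicate 1 exceeded replicate 2 in all 4 groups of days 3 and 7 for 15 of 31 members, against 19.8% of all genes, and fell below it for 8, against 20.6%. No gene was called for a difference of the genotype effect between day 3 and day 1.5 or between day 7 and day 1.5 (0% in both edgeR tests, with 173 and 272 genes at an unadjusted p below 0.05; 0 members at day 3 and 1 at day 7, Slc2a3, had an unadjusted p below 0.05).

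In spleen B cells at day 2.5, Slc2a6 was the 1 member of 33 that was called, higher in cKO cells, against 5.18% of all genes called and 2.82% called higher. It had 326, 335, 351, 181 and 201 CPM in cKO cells, against 247, 265, 301, 131 and 146 CPM in WT cells. Both genotypes split by run, replicates 4 and 5 of the first run being the low ones, and in each of the 5 pairs the cKO library was the higher. The log2 fold change was 0.38 ± 0.09 (SE), with an edgeR adjusted p of 0.0187. Leaving out WT replicate 1 gave 0.35 and an adjusted p of 0.0608, and no other single omission ended the call. Within runs it was 0.45 in the first (adjusted p = 1, with 2 libraries per genotype) and 0.31 in the second (adjusted p = 0.0608, with 3 each at this day). With Drosophila scaling it was 0.23 (adjusted p = 0.71), where the median of all genes lay at -0.14.

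Hif1a, the oxygen-regulated subunit of HIF-1, was the next by p. It had 90.9, 87.3, 97.7, 109 and 104.97 CPM in cKO cells at day 2.5, against 80.5, 82.9, 71.3, 88.8 and 91.4 CPM in WT cells. Each cKO library exceeded the WT library of its number, while the groups as a whole overlapped. Its log2 fold change was 0.24 ± 0.07 (SE; edgeR adjusted p = 0.0627). In the blocked fit, 2 of 33 members were called, both higher in cKO cells, against 11.5% of all genes called and 6.26% called higher: Slc2a6 (0.38 ± 0.07, adjusted p = 0.00255) and Hif1a (0.24 ± 0.07, adjusted p = 0.0302). They were also the 2 members that were higher in cKO cells in every pair, against 12.8% of all genes. No member was lower in every pair, against 11.8%. The members' median log2 fold change was -0.04, and -0.17 to 0.12 when 1 library was left out. Whether the numbers pair all libraries at this day is uncertain. Same-numbered libraries correlated over genes at r = 0.219 to 0.760, and others at up to 0.45. The annotation places Gm15283 over Hif1a on the other strand, and whether the counting used strand is not given in the sources used here.

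At day 3.5 no member was called (2.07% of all genes were). Pfkp, the platelet-type phosphofructokinase, came closest. It had 86.2, 83.2 and 78.7 CPM in cKO cells, against 157, 113 and 130 CPM in WT cells, with a log2 fold change of -0.69 ± 0.18 (SE; edgeR adjusted p = 0.0565). Hk2 had 83.6, 93.7 and 59.5 CPM in cKO cells, against 132, 97.3 and 126 CPM in WT cells (log2 fold change -0.58 ± 0.18, adjusted p = 0.13). For both genes every cKO library lay below every WT library. Slc2a6 had 397, 385 and 464 CPM in cKO cells, against 290, 365 and 333 CPM in WT cells (0.33 ± 0.11, adjusted p = 0.15), and Hif1a had 73.3, 90.4 and 78.1 CPM in cKO cells, against 66.7, 69.0 and 68.1 CPM in WT cells (0.25 ± 0.09, adjusted p = 0.21). Groups did not overlap for 3 members higher in cKO cells (Hif1a, Pdha1 and Slc2a6), against 12.6% of all genes, and for 7 lower (Aldoa, Aldoc, Hk1, Hk2, Pdk1, Pfkl and Pfkp), against 12.5%. In all 3 same-numbered pairs 17 of 33 members were lower in cKO cells, against 19.7% of all genes, and 3 were higher, against 18.4%. The numbers were not found to pair the libraries at this day. The members' median log2 fold change was -0.11, and -0.14 to -0.05 when 1 library was left out.

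The count of members called at day 3.5 was larger when some of the day 2.5 libraries that share the fit were left out. With the second run alone, 4 of 33 members were called, against 9.38% of all genes: Slc2a6 was higher in cKO cells (adjusted p = 0.0350), and Pfkp (adjusted p = 0.000707), Hk2 (adjusted p = 0.0127) and Pfkl (adjusted p = 0.0258) were lower. Without the replicate 4 libraries of day 2.5, which are described below, the same 4 genes were called, against 9.09% of all genes. In that fit Slc2a6 (0.36, adjusted p = 0.00994) and Hif1a (0.23, adjusted p = 0.0490) were the 2 members called at day 2.5, against 10.4% of all genes. No gene was called for a difference of the genotype effect between day 3.5 and day 2.5 (0% by edgeR; 278 genes and 0 members with an unadjusted p below 0.05). In a joint fit of both systems, chosen after seeing the data, no member was called for a difference between the genotype effects of CH12F3 day 1.5 and spleen day 2.5, against 0.454% of all genes. For Slc2a6 that difference was 0.27 ± 0.18, and for Eno2, which spleen cells hold at 1.73 to 13.6 CPM, it was 0.84 ± 0.34 (adjusted p = 0.46).

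**Figure D3:**
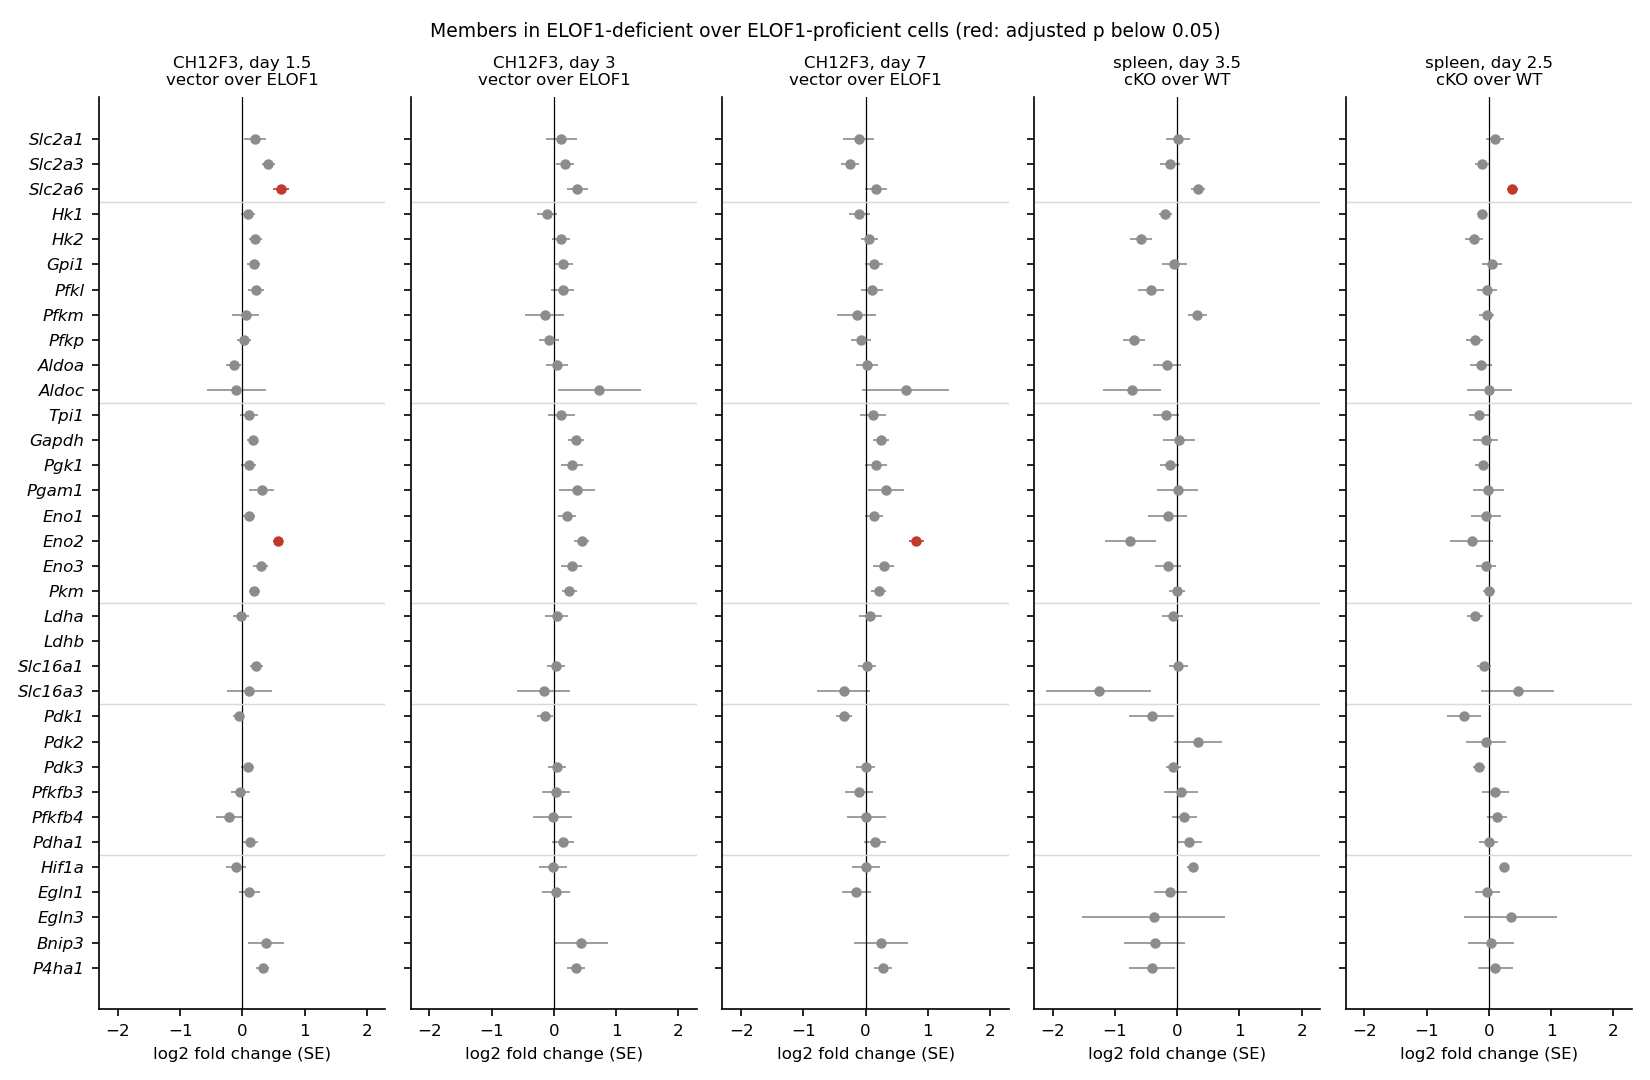
Log2 fold change (points) with its SE (lines) of each tested member in ELOF1-deficient over ELOF1-proficient cells, in 5 comparisons, ordered by role from glucose carriers at the top to the HIF pathway at the bottom. Red points have an adjusted p below 0.05: Slc2a6 and Eno2 at CH12F3 day 1.5, Eno2 at CH12F3 day 7 and Slc2a6 at spleen day 2.5.

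The wider pathway was described by lists of genes that are not members. At CH12F3 day 1.5 none of 14 other glycolysis genes was called (smallest adjusted p 0.0551 for Pfkfb2, a maker of the phosphofructokinase activator, at 0.53 ± 0.12). The same held for 9 other pyruvate entry genes, 10 other HIF pathway genes, 25 other HIF targets, 7 pentose phosphate genes and 13 regulators such as Myc. Of 17 tricarboxylic acid cycle genes 1 was called, Dlst, a subunit of the oxoglutarate dehydrogenase complex, at 0.32 ± 0.07 (edgeR adjusted p = 0.0378). Beside these, Prdm1, the plasma cell regulator, was lower in vector cells (-2.87 on the log2 scale, adjusted p = 0.0434), while the 7 plasma cell markers summed to 654 to 1541 TPM in vector cells, against 841 to 1532 TPM in ELOF1 cells. At spleen day 2.5, 3 of 27 other HIF targets were called higher in cKO cells, against 2.82% of all genes, with a list median of -0.06: Adm (adrenomedullin, 1.02 ± 0.23, adjusted p = 0.0176), Cited2 (a HIF antagonist, 0.38 ± 0.09, adjusted p = 0.0191) and Pgf (placental growth factor, 1.57 ± 0.38, adjusted p = 0.0240). Pcx, the carboxylase that turns pyruvate into oxaloacetate, was lower (-0.47 ± 0.11, adjusted p = 0.0196), and 0 of 11 other glycolysis genes and 0 of 17 tricarboxylic acid cycle genes were called. At day 3.5 Adm was again higher (1.26 ± 0.29, adjusted p = 0.0345) and Stc2 was lower, of 27. In the same cells, Cd68 of the myeloid list was higher in cKO cells at day 2.5 (0.74 ± 0.13, adjusted p = 0.00361) and Lck of the T and NK cell list lower (-0.54 ± 0.11, adjusted p = 0.00834). The myeloid list summed to 21.6 to 34.4 TPM in cKO cells, against 15.2 to 34.6 TPM in WT cells, with Elane, S100a8 and S100a9 at 0. The part of these cells in the members' values was not tested.

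Several hypoxia-linked members differed widely between libraries of the same group. In both spleen genotypes at day 2.5, replicate 4 had 8 of 33 members at least 2-fold above the median of the other 4 libraries: Egln3, Slc16a3, Bnip3, P4ha1, Aldoc, Pdk1, Pfkp and Egln1. Of all genes, 6.15% stood that far above in both genotypes. For replicates 1, 2 and 3 the members numbered 0, against 0.127%, 0.0973% and 0.202% of all genes. For replicate 5, the other pair of the first run, they also numbered 0, against 5.04%. The replicate 5 libraries stood apart in another way: Lyz2, a myeloid marker, was 6.50-fold and 16.1-fold above the median of the other libraries in cKO and in WT cells, while the 8 B cell markers had a median ratio of 0.712 and 0.718. Lyz2 was the 1 of 5 tested myeloid markers at least 2-fold above in both genotypes, and the list's median ratios were 1.17 and 2.07. The part of this in the members' values was not tested.

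Egln3, the prolyl hydroxylase most strongly induced by HIF itself, had 1.68, 2.08, 8.58, 28.0 and 2.47 CPM in cKO cells, against 1.49, 2.06, 3.41, 33.97 and 0.909 CPM in WT cells. Replicate 4 stood far above the other libraries in both, 12.1-fold over their median in cKO cells and 18.7-fold in WT cells. Slc16a3 had 10.7, 16.3, 53.8, 184 and 35.7 CPM in cKO cells, against 19.5, 11.6, 16.2, 195 and 16.4 CPM in WT cells. Its replicate 4 was 7.09-fold and 11.96-fold above the others, and cKO replicate 3 was the next highest. Bnip3 had 19.5, 21.95, 36.9, 93.8 and 35.4 CPM in cKO cells, against 26.6, 15.8, 25.3, 125 and 23.2 CPM in WT cells, which placed replicate 4 at 3.27-fold and 5.12-fold. The promoters of these genes, printed above, hold marked cores, as do 81.8% of the members' promoters.

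P4ha1 stood 2.65-fold and 3.998-fold above the other libraries in replicate 4 of cKO and of WT cells, Pdk1 2.42-fold and 3.62-fold, Aldoc 2.57-fold and 3.84-fold, Pfkp 2.004-fold and 2.44-fold, and Egln1 2.01-fold and 2.23-fold. Of the other enzymes of the chain, Pfkl was 2.06-fold and 1.98-fold above, Tpi1 1.88-fold and 1.89-fold, Ldha 1.45-fold and 1.56-fold. Hif1a itself was close to the others, at 1.15-fold and 1.09-fold. Slc2a6 went the other way, at 0.546 and 0.511 of the median, and its next lowest library in each genotype was replicate 5, of the same run.

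Genes outside the members were counted by the same rule. Of 27 other HIF targets, 9 stood at least 2-fold above in replicate 4 of both genotypes (Ak4, Ankrd37, Bnip3l, Higd1a, Kdm4b, Ndrg1, P4ha2, Plod2 and Vegfa), and the list's median ratio was 1.82 in cKO and 1.94 in WT cells. None of 17 tricarboxylic acid cycle genes did, with median ratios of 0.751 and 0.753, and none of 7 pentose phosphate genes, 8 B cell markers, 2 T and NK cell markers and 5 myeloid markers. Among 11 other glycolysis genes 1 did (Pgm1, with list medians of 1.15 and 1.18), among 11 other HIF pathway genes 1 (Hif3a, 0.948 and 0.990) and among 18 proliferation genes 1 (Mki67, 0.792 and 0.787). Mitochondrially encoded genes took 2.90% to 3.55% of the counts in the 4 first-run spleen libraries, against 0.484% to 1.42% in the second run. The sources used here do not state the oxygen, density or harvest of these cultures, and their part in replicate 4 was not tested.

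**Figure D4:**
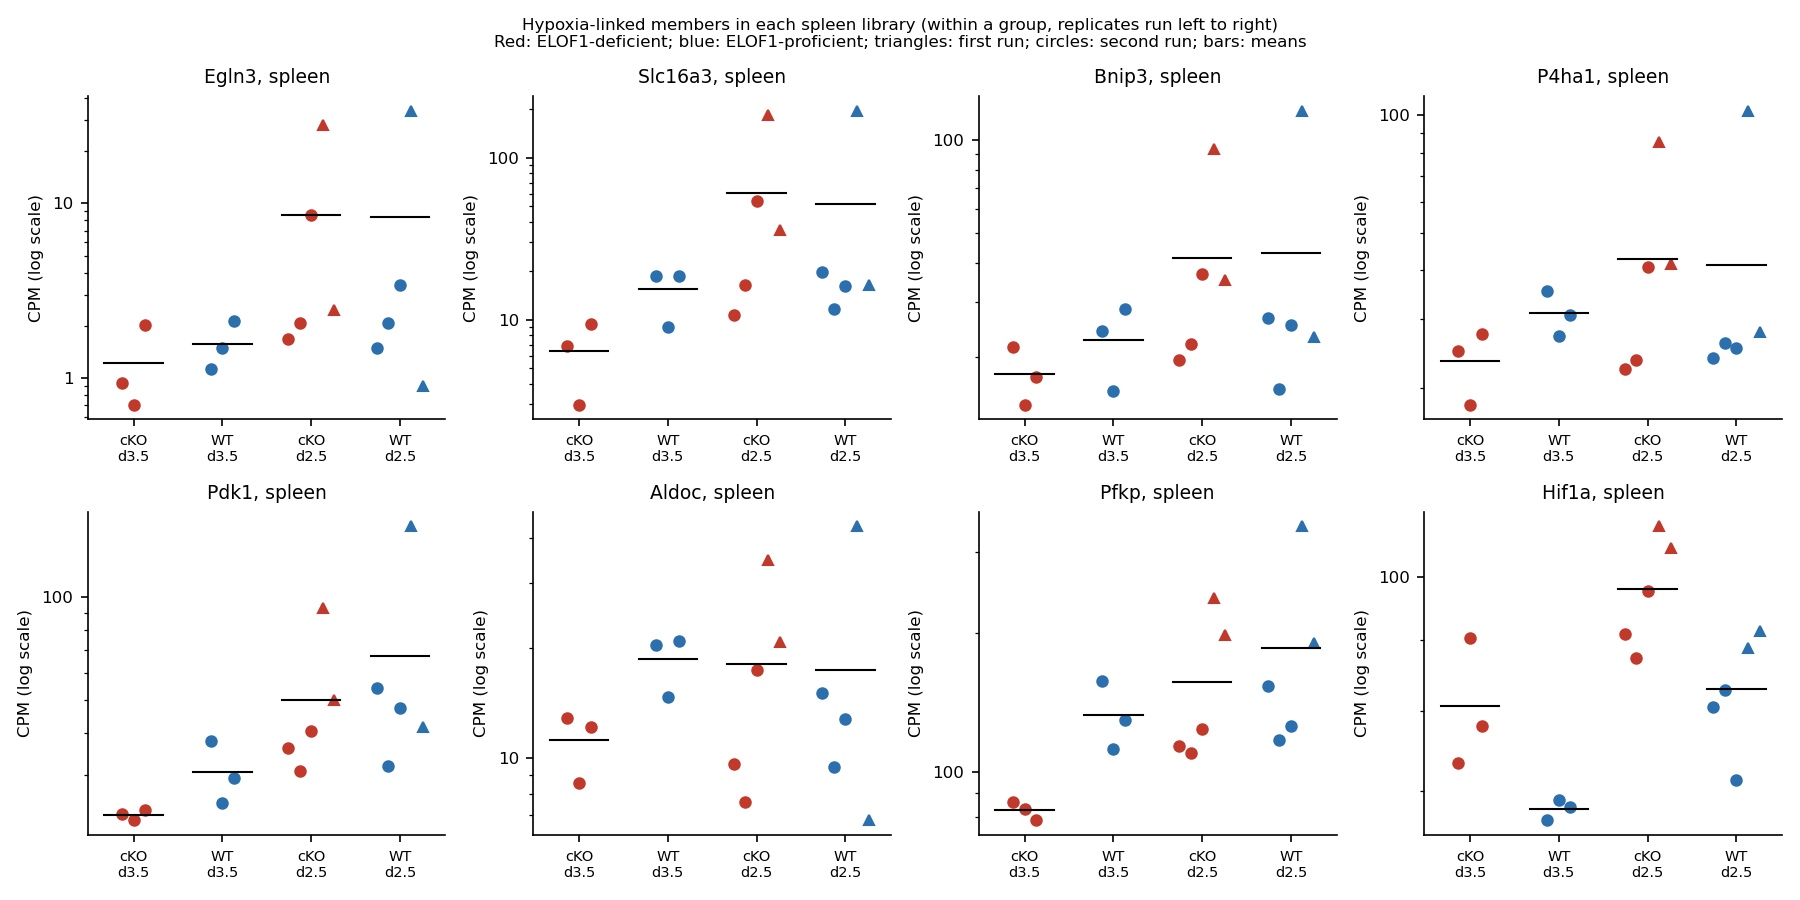
CPM (log axes) of 8 members in each spleen library, replicates running left to right within a group. Red points are cKO, blue points WT, triangles the first run, circles the second, and bars group means. The fourth library of each day 2.5 group stands highest for Egln3 (28.0 and 33.97 CPM), Slc16a3 (184 and 195 CPM) and Bnip3 (93.8 and 125 CPM), while Hif1a stays between 66.7 and 109 CPM in all 16 libraries.

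The run went with large differences, which in spleen were not alike in the 2 pairs of the first run. In the spleen fit 16 of 33 members were higher and 1 lower in the first run than in the second, against 22.1% and 18.3% of all genes. The 1 lower was Slc2a6, with a log2 difference of -0.89. Without the replicate 4 pair, so that replicate 5 alone stood for the first run, 6 members were higher and 7 lower, against 24.3% and 25.8% of all genes. Higher then were Pfkp, Pdha1, Hk2, Pfkm, Slc16a1 and Hk1, and lower were Gapdh, Pgam1, Slc2a6, Gpi1, Eno1, Aldoa and Slc2a1. The WT library of replicate 5 lay below the median of the other WT libraries for Bnip3 (0.894 of it), Pdk1 (0.820) and Egln3 (0.342). The cKO library of replicate 5 lay above that of the other cKO libraries for Bnip3 (1.20) and Pdk1 (1.30) and below it for Egln3 (0.468). In the CH12F3 fit 2 of 31 members (Hk1 and Pfkfb4) were higher and 7 lower in the first run, against 18.4% and 20.1% of all genes. Slc16a3 was the extreme: at day 1.5 it had 3.24 and 2.65 CPM in the vector libraries of the first run, against 126 and 63.1 CPM in those of the second, and 4.59 and 1.25 CPM, against 103 and 69.5 CPM, in ELOF1 cells. The log2 difference was -4.98 ± 0.41 (SE; edgeR adjusted p = 3.41e-06). In spleen the log2 difference of the same gene was 2.38 with all libraries (adjusted p = 0.00476) and 0.22 ± 0.43 without the replicate 4 pair (adjusted p = 0.69), and both replicate 5 libraries, at 35.7 CPM in cKO cells and 16.4 CPM in WT cells, lay within the range of the second-run libraries of their genotype at day 2.5. What else set the 2 series of libraries apart cannot be told from the labels.

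The second question is how the pathway changed with time in culture. In CH12F3 cells 2 members were called in 1 of the 4 comparisons with day 1.5, and none in the others. All 4 comparisons share the day 1.5 libraries of their genotype. In vector cells no member was called at day 3 over day 1.5 (0.00704% of all genes were). At day 7, 2 were called, both lower, against 0.169% of all genes called and 0.127% called lower. In ELOF1 cells none was called at day 3 (0.00704% of all genes) or at day 7 (0.0493%). The members' median log2 fold changes were -0.34 and -0.33 in vector cells at days 3 and 7, and -0.27 and -0.26 in ELOF1 cells, while the median of all genes stayed between -0.01 and 0.00. In vector cells 26 of 31 members had a negative log2 fold change at day 3 and 26 at day 7, against 51.9% and 50.6% of all genes, and in ELOF1 cells 27 and 27, against 49.1% and 51.2%. The vector median at day 3 was -0.21 without day 1.5 replicate 3 and -0.17 without day 3 replicate 2.

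Pdk1 had 114, 102, 101 and 99.3 CPM at day 1.5, 65.0 and 60.8 CPM at day 3, and 54.9 and 55.5 CPM at day 7 in vector cells. Both later days lay wholly below day 1.5. The log2 fold change at day 7 was -0.83 ± 0.12 (SE; edgeR adjusted p = 0.0162). The call was lost without day 1.5 replicate 3 or 4 or day 7 replicate 1 or 2 (adjusted p 0.0558 to 0.154), with log2 fold changes of -0.85 to -0.80 over the 6 omissions. In ELOF1 cells Pdk1 had 134, 101, 95.6 and 104 CPM at day 1.5, 65.1 and 73.9 CPM at day 3, and 69.8 and 70.0 CPM at day 7, a log2 fold change of -0.54 ± 0.12 at day 7 (adjusted p = 0.15). Slc2a3 had 93.5, 97.2, 118 and 103 CPM at day 1.5, 87.3 and 75.6 CPM at day 3, and 62.1 and 72.5 CPM at day 7 in vector cells, a log2 fold change of -0.78 ± 0.14 at day 7 (adjusted p = 0.0461). Every omission of 1 of the 6 libraries ended this call (adjusted p 0.0612 to 0.281). With Drosophila scaling the log2 fold change of Pdk1 was -0.83 ± 0.24 (adjusted p = 0.45) and that of Slc2a3 -0.79 ± 0.27 (adjusted p = 0.66), so the folds were as large and the errors larger.

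Counted by groups that did not overlap, 12 of 31 members were lower at day 3 and 11 at day 7 in vector cells, against 7.47% and 9.7% of all genes. In ELOF1 cells 12 and 13 were lower, against 6.38% and 12%. Bnip3, Egln1, Hk1, Pdk1, Pfkl, Pgk1, Pkm and Tpi1 (8 of 31) were lower in all 4 comparisons, against 0.993% of all genes; the comparisons of 1 genotype share its day 1.5 libraries. Bnip3 had 122, 79.6, 98.8 and 64.7 CPM at day 1.5, 57.8 and 24.0 CPM at day 3, and 31.95 and 27.0 CPM at day 7 in vector cells. With SEs of 0.40 to 0.41 on the log2 scale its changes of -0.99 and -1.46 were not called (adjusted p = 0.74 and 0.20). Slc16a1, the importer and exporter of lactate, was the 1 member that lay wholly above day 1.5 at day 7 in vector cells, against 8.44% of all genes. It was also the 1 such member in ELOF1 cells, against 11.9%.

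In the spleen cultures the members' median log2 fold change on the later day was -0.23 in cKO cells and -0.20 in WT cells, against 0.00 and 0.01 over all genes, and 27 and 26 of 33 members had a negative one, against 50.1% and 49.0% of all genes. Without WT day 2.5 replicate 4 the WT median was -0.12. In cKO cells 1 of 33 members was called at day 3.5 over day 2.5, Pfkl, lower, against 3.4% of all genes called and 0.688% called lower. Pfkl, the liver-type phosphofructokinase that commits sugar to glycolysis, had 102, 76.1 and 96.5 CPM at day 3.5, against 143, 154, 166, 329 and 212.03 CPM at day 2.5. Every day 3.5 library lay below every day 2.5 library. The log2 fold change was -0.78 ± 0.20 (SE; edgeR adjusted p = 0.0467), and the call was lost without day 2.5 replicate 1, 2 or 3 or any day 3.5 library (adjusted p 0.0791 to 0.173).

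In WT cells 2 of 33 were called, Ldha lower and Eno2 higher, against 5.45% of all genes called, 1.28% lower and 4.17% higher. Ldha had 746, 645 and 758 CPM at day 3.5, against 1188, 1039, 1152, 1712 and 952 CPM at day 2.5, and the groups did not overlap. Its log2 fold change was -0.64 ± 0.16 (SE; adjusted p = 0.0334), lost without day 2.5 replicate 1, 2 or 3 or any day 3.5 library (adjusted p 0.0537 to 0.154). Eno2 had 11.96, 7.36 and 13.6 CPM at day 3.5, against 4.86, 3.14, 2.49, 7.47 and 1.73 CPM at day 2.5, a log2 fold change of 1.62 ± 0.39 (adjusted p = 0.0247) in a gene near the bottom of the measured range. Day 2.5 replicate 4 exceeded the lowest day 3.5 library. The Eno2 call was lost without day 2.5 replicate 2 or 3 or day 3.5 replicate 1 or 3 (adjusted p 0.0698 to 0.110).

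**Figure D5:**
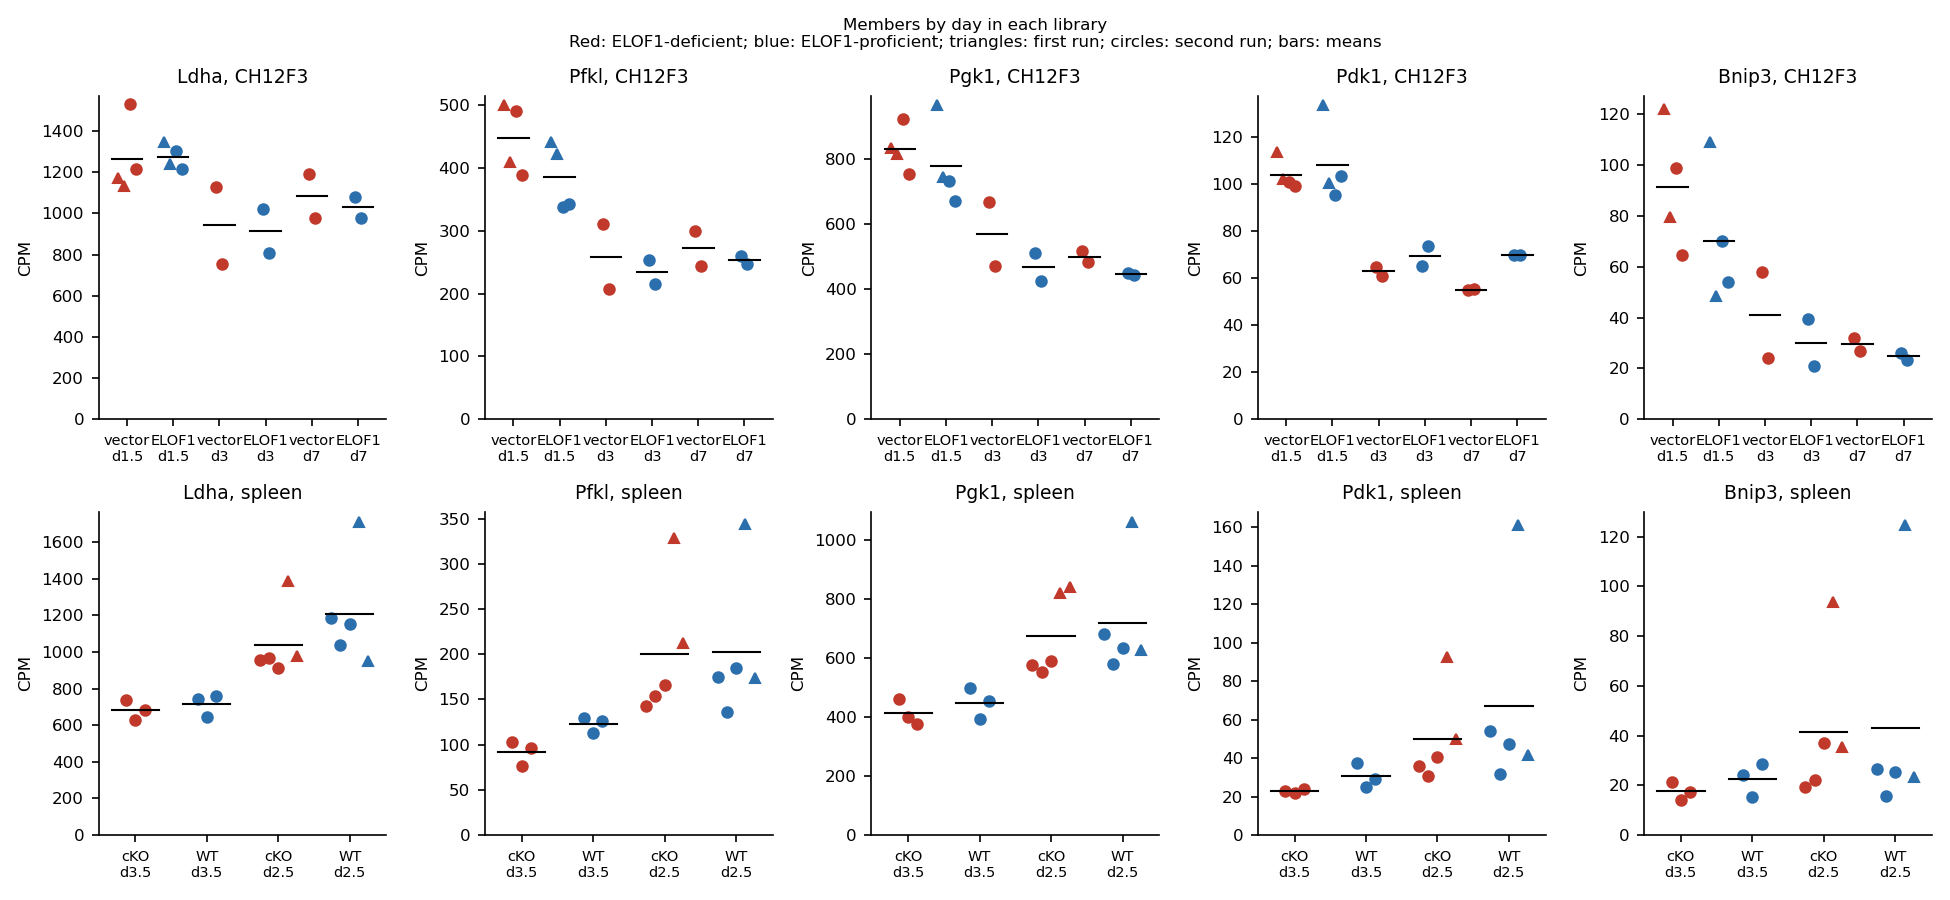
CPM of 5 members in each library by genotype and day (linear axes from 0), CH12F3 above and spleen below. Red points are ELOF1-deficient, blue points ELOF1-proficient, triangles the first run, circles the second, and bars group means. Pfkl in cKO spleen cells lies at 76.1 to 102 CPM at day 3.5 and at 143 to 329 CPM at day 2.5, and Pdk1 in vector CH12F3 cells lies at 54.9 and 55.5 CPM at day 7, below 99.3 to 114 CPM at day 1.5.

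Within the second run, which holds all day 3.5 libraries and 3 of the 5 day 2.5 libraries of each genotype, the count was larger. There 13 of 33 members were called in cKO cells, against 13.1% of all genes, and 13 in WT cells, against 15.6%. These shares count both directions together. In each genotype 2 members were higher, Slc2a6 and Eno2, and 11 lower, with no share of all genes by direction given here. Lower in cKO cells were Slc2a1, Pfkl, Tpi1, Pgk1, Eno1, Ldha, Pdk1, Aldoa, Pfkp, Slc16a3 and Egln3. In WT cells they were Slc2a1, Pfkl, Tpi1, Pgk1, Eno1, Ldha, Pdk1, Gapdh, Pgam1, Pkm and Pdha1. Ldha stood at -0.46 ± 0.08 in cKO cells on the log2 scale (adjusted p = 0.00125) and at -0.64 ± 0.08 in WT cells (adjusted p = 7.09e-05), and Pfkl at -0.74 ± 0.11 (adjusted p = 0.000391) and -0.42 ± 0.11 (adjusted p = 0.0168). The difference between the day effects of cKO and WT cells is the difference of the genotype effect between the days given above, for which no gene was called, with all libraries or in the second run alone. With all libraries but the replicate 4 pair, 15 members were called in cKO cells (1 higher, 14 lower), against 12.8% of all genes in both directions together. In WT cells 10 were called (2 higher, 8 lower), against 17.7%, counted the same way. Groups that did not overlap were lower at day 3.5 for 10 members in cKO cells and 6 in WT cells, against 6.28% and 5.41% of all genes. In cKO cells they were Hk1, Ldha, Pdk1, Pfkl, Pfkp, Pgk1, Pkm, Slc16a3, Slc2a1 and Tpi1. In WT cells they were Hif1a, Ldha, Pfkl, Pgk1, Pkm and Tpi1.

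Of the 6 plasma cell markers tested, 3 were called higher at day 3.5 in cKO cells (Jchain, Mzb1 and Sdc1) and 2 in WT cells (Jchain and Mzb1), against 2.72% and 4.17% of all genes called higher. Jchain differed by 2.16 ± 0.41 on the log2 scale in cKO cells (edgeR adjusted p = 0.00846) and by 2.18 ± 0.38 in WT cells (adjusted p = 0.00383). The 7 markers of the list summed to 1694 to 2260 TPM at day 3.5, against 936 to 1101 TPM at day 2.5, in cKO cells, and to 1874 to 2413 TPM, against 922 to 1428 TPM, in WT cells. Of 18 proliferation genes 1 was called lower in cKO cells (Plk1) and 4 in WT cells (Plk1, Mcm2, Aurkb and Top2a), against 0.688% and 1.28% of all genes called lower. Hmox1, heme oxygenase, was the 1 of 27 other HIF targets called, higher in cKO (1.37 ± 0.22, adjusted p = 0.00291) and WT cells (1.15 ± 0.23, adjusted p = 0.00966). None of the other glycolysis (11), pentose phosphate (7), tricarboxylic acid cycle (17) and regulator (13) genes was called in either genotype. The part of cell state in the members' values was not tested.

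The 2 systems were set side by side through their ELOF1-proficient cells, CH12F3 ELOF1 day 1.5 over spleen WT day 2.5, in a joint fit of 15639 genes. Cell origin, stimulus and day differ together here and cannot be told apart. Of 33 members, 11 were higher and 5 lower in CH12F3, against 28.9% and 32.9% of all genes (61.8% called in all). Egln3 and Pdk2, among the 5 lower, were too low to be tested in CH12F3 alone. They entered the joint fit only through the spleen libraries, so their direction was fixed by the filter. Eno2 had 69.0, 64.2, 59.8 and 55.7 CPM (scaled over both systems) in CH12F3, against 5.18, 3.37, 2.67, 7.95 and 1.86 CPM in spleen, a log2 fold change of 3.88 ± 0.24 (SE; edgeR adjusted p = 8.35e-14). Eno3, the muscle enolase, had 19.7, 26.4, 22.9 and 24.5 CPM in CH12F3, against 6.34, 8.86, 7.32, 7.75 and 7.27 CPM in spleen (1.63 ± 0.14, adjusted p = 5.15e-11). Pfkm, the muscle phosphofructokinase, had 51.2, 49.2, 31.7 and 52.2 CPM in CH12F3, against 10.8, 12.4, 12.1, 19.3 and 16.2 CPM in spleen (1.68 ± 0.18, adjusted p = 7.22e-09). For all 3 the CH12F3 libraries lay wholly above the spleen libraries.

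Aldoc, the brain aldolase, went the other way, with 1.98, 0.992, 0.590 and 0.434 CPM in CH12F3, against 16.1, 10.2, 13.7, 45.7 and 7.27 CPM in spleen (-4.42 ± 0.45, adjusted p = 2.13e-09). Egln3 had 0 counts in all 16 CH12F3 libraries, against 1029 in the 16 spleen libraries. Against a limit of 3 counts over the 4 CH12F3 ELOF1 libraries of day 1.5, it was at least 118-fold lower in CH12F3 than in spleen WT cells at day 2.5, and at least 28.5-fold lower without spleen replicate 4; this covers counting error only. Pdk2 had 9 counts in all CH12F3 libraries, against 398 in spleen. The other called members were Slc2a3, Hk2, Pfkl, Eno1, Slc16a1, Pdk3, Pfkfb4 and P4ha1, higher in CH12F3, and Slc2a6 and Hk1, lower. The call of Slc16a1 was lost without CH12F3 replicate 3 or 4 (adjusted p 0.0662 to 0.0893). That of Pfkfb4 was lost without CH12F3 replicate 1, 2 or 4 or spleen replicate 2, 4 or 5 (adjusted p 0.0627 to 0.196).

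Scaling on the Drosophila RNA moved the median of all genes in this comparison to 0.88 on the log2 scale, against -0.06 with TMM. Under it 31 of 33 members were called, 28 higher and 3 lower in CH12F3, against 71.7% of all genes called, 61.8% higher and 9.89% lower. Slc2a6, at -0.84 ± 0.13 with TMM, was at 0.13 (adjusted p = 0.53), and Hk1, at -0.49 ± 0.10 with TMM, was at 0.44 (adjusted p = 0.0473). Both values are below the median of all genes under that scaling.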

How the data were processed

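RNA was measured in 32 libraries, 16 of CH12F3 cells and 16 of spleen B cells, from total RNA after rRNA depletion with a strand-specific kit and added Drosophila RNA, per the labels' protocols. The authors deposited 2 tables of raw read counts per gene (43345 mouse and 17509 Drosophila genes), and the submitters' processing notes name Bowtie2, featureCounts, mm10 and dm6. The sources used here do not state the strand or multiple-mapping settings of the counting. Each table's gene length column, in base pairs of exons per the file headers, gave TPM for levels between genes.

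Depth ran from 7112130 to 16359477 mouse counts per library, and no 2 libraries were identical. Genes without a symbol (0.355% to 0.470% of mouse counts) stayed in the library totals. Counts were fitted with edgeR 4.0.16 (limma 3.58.1, R 4.3.3): filterByExpr with a minimum count of 10, TMM scaling, quasi-likelihood F tests in 1 fit per system with terms for group and run, Benjamini-Hochberg adjustment over all genes tested and a threshold of 0.05. The SE is the absolute log2 fold change over the square root of F. The systems were compared in 1 fit of all 32 libraries. Python 3.11.15, NumPy 2.4.6, pandas 2.3.3 and matplotlib 3.10.9 made the tables and plots. The code was tested on simulated data.

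Alternatives were DESeq2 1.42.0's size factors and test, scaling on Drosophila counts, no count filter, no run term, only the compared groups, each run alone, the replicate number as a block, and leaving out each library. Leaving out both replicate 4 libraries of spleen day 2.5, also for the run term, and the difference between the systems' genotype effects, were added after seeing the data.

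Replicate numbers are shared across genotypes. Deviations from group means of same-numbered libraries correlated over genes at r = 0.606 to 0.623 at CH12F3 day 1.5 (0.387 to 0.425 after removing run means) and at 0.219 to 0.760 at spleen day 2.5 (-0.182 to 0.754 after removing run means), so the block is given beside those results. Libraries of different numbers reached r = 0.45 at spleen day 2.5 (0.279 after removing run means), above the lowest same-numbered pair. The pairing at that day is therefore uncertain. At CH12F3 day 1.5 each run holds 2 libraries per genotype. Removing run means therefore gives other-numbered libraries of a run the same r with its sign turned (0.425 and -0.425). The pairing there was read from these same data and is uncertain too. The labels do not say what the numbers share.

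The members and lists were chosen with earlier results of these data known. Full values were given for members called in a genotype comparison (also with the block at CH12F3 day 1.5 and spleen day 2.5), at most 12 by smallest p, and for the 4 called members with the smallest p in each other comparison. Up to 4 called genes were named per other list. Other genes and values were chosen after the data were seen, such as Pfkp, Hk2 and Slc16a3. Promoters came from a RefSeq table of GRCm38.p6, the base assembly of mm10.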

Additional observations from a re-analysis of the deposited data

Results flagged for a closer look

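In 128 groups of 4 or 5 libraries, 19 members' values had the highest or lowest library far from the rest by Dixon's test at the 95% level, where chance gives about 1 in 20. Of these, 16 were the high values of the replicate 4 libraries of spleen day 2.5. In the cKO library they were Ldha at 1390.0 CPM, Slc16a3 at 184 CPM, Egln3 at 28.0 CPM and Bnip3 at 93.8 CPM. In the WT library they were Slc2a3 at 50.1 CPM, Pfkl at 344 CPM, Aldoc at 42.9 CPM, Tpi1 at 867 CPM, Pgk1 at 1063 CPM and Slc16a3 at 195 CPM. The same WT library stood apart for Pdk1 at 161 CPM, Pfkfb3 at 78.4 CPM, Egln1 at 129 CPM, Egln3 at 33.97 CPM, Bnip3 at 125 CPM and P4ha1 at 103 CPM. The genes are not independent of each other within a library.

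Gapdh was low in replicate 5 of the same day, at 1359 CPM in the cKO library and 1168 CPM in the WT library. In the same 2 libraries the myeloid marker Lyz2 was 6.50-fold and 16.1-fold above the median of the others, and the B cell markers had a median ratio of 0.712 and 0.718. The 5 tested myeloid markers as a list had median ratios of 1.17 and 2.07. Pkm was low at 2777 CPM in vector replicate 2 of CH12F3 day 1.5. No cause was tested for these values.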

How the results depend on the processing

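The number of members called moved with the processing, and the cause was not tested. Counts are given for each comparison beside that of the reported fit, each with the share of all genes called under the same setting, which moved too.
For CH12F3 vector over ELOF1 at day 1.5 (2 called, 1.15% of all genes), Drosophila scaling gave 0 (0.317% of all genes), the first run alone 0 (0.403%), the second run alone 0 (0%), no run term 1 (0.155%), only the compared groups 1 (0.504%), the DESeq2 test 3 (3.14%), no filter 4 (3.04%) and the replicate block 6 (8.6%). At day 7 (1 called, 0.0352%), Drosophila scaling and no run term gave 0 (0.00704% each), the second run alone 0 (0.0371%) and only the compared groups 0 (0%).
For spleen cKO over WT at day 2.5 (1 called, 5.18%), Drosophila scaling gave 0 (0.696%), no run term 0 (1.52%), the first run alone 0 (0%), the second run alone 0 (6.65%), the DESeq2 test 2 (7.71%), the replicate block 2 (11.5%), leaving out the replicate 4 pair 2 (10.4%) and no filter 3 (3.76%). At day 3.5 (0 called, 2.07%), the DESeq2 test gave 1 (4.24%), no filter 4 (2.21%), the second run alone 4 (9.38%), leaving out the replicate 4 pair 4 (9.09%), only the compared groups 5 (6.93%) and the replicate block 5 (6.21%).
In CH12F3 vector cells, day 3 over day 1.5 (0 called, 0.00704%) gave 3 by the DESeq2 test (0.352%) and 8 without a filter (0.559%). Day 7 over day 1.5 (2 called, 0.169%) gave 0 with Drosophila scaling (0.0211%), no run term (0.0141%) or only the compared groups (0%), 1 with DESeq2 size factors (0.134%) or the second run alone (0.119%), 5 by the DESeq2 test (1.16%) and 10 without a filter (1.49%). In ELOF1 cells, day 3 (0 called, 0.00704%) gave 2 by the DESeq2 test (0.162%) and 6 without a filter (0.265%), and day 7 (0 called, 0.0493%) gave 2 (0.683%) and 7 (0.936%).
For spleen day 3.5 over day 2.5, cKO cells (1 called, 3.4%) gave 0 with no run term (2.13%) or only the compared groups (2.13%), 2 by the DESeq2 test (6.01%), 10 without a filter (3.64%), 13 in the second run alone (13.1%), 14 with the replicate block (13.3%) and 15 without the replicate 4 pair (12.8%). WT cells (2 called, 5.45%) gave 0 with only the compared groups (1.53%), 1 with Drosophila scaling (1.25%), 7 without a filter (4.68%), 10 without the replicate 4 pair (17.7%), 13 in the second run alone (15.6%) and 13 with the replicate block (15.7%). Without a filter the differences of the genotype effect between spleen days and between systems (0 called) gave 1 each (0.069% and 1.25%). Between the systems (16 called, 61.8%), Drosophila scaling gave 31 (71.7%), with Slc2a6 at 0.13 and Hk1 at 0.44 on the log2 scale, both with the sign turned.
Leaving out 1 library gave 1 to 2 members called for CH12F3 genotype at day 1.5, 0 to 1 at day 7, 0 to 1 for spleen genotype at day 2.5 and at day 3.5 (1 without WT replicate 2), 0 to 1 for vector day 7 over day 1.5, 0 to 1 for cKO and 0 to 4 for WT day 3.5 over day 2.5, and 14 to 20 between the systems.
The numbers were not found to pair the spleen libraries at day 3.5 (r = -0.259 to 0.0732) or across days (cKO -0.168 to 0.273, WT -0.0418 to 0.336), and CH12F3 days 3 and 7 have only 2 pairs, so those block fits describe a shared number only. No block could be fitted across CH12F3 days, since the numbers lie in different runs.
Single-gene values were followed only for Elof1 and for members called in the reported fit, or in the blocked fit at CH12F3 day 1.5 or spleen day 2.5. Leaving out 1 library kept direction and call, or the lack of a call, in 243 values and ended the call in 50. The other settings kept both in 236, ended the call in 38, gained it in 10 and turned the sign in 2. Groups of 2 or 3 libraries limit what days 3, 3.5 and 7 can show, and members at a few CPM, such as Egln3, Aldoc and spleen Eno2, carry large counting error.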
